A study of Mus musculus with 9 samples.

Results

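The 7 genes described here are Tgfb2 and Inhba, which encode ligands of the TGF-beta family, and Lox, Vcan, Fndc1, Vwa1 and Timp3, which encode extracellular matrix proteins and a regulator of matrix breakdown. They were picked by gene symbol out of the 819 genes in the deposited comparison tables, with their values in those tables known, so their levels and differences are given as a description and carry no test. RNA was sequenced from RSC96, a Schwann cell line, in 3 groups of 3 libraries. E-SCs were RSC96 cells given MenSCs-Exos, the exosomes of MenSCs, which are stem cells derived from menstrual blood. M-SCs were RSC96 cells given MenSCs-CM, the medium conditioned by such cells. SCs were the controls, which the sample titles describe as RSC96 in co-culture with control MenSCs and the design text as control SCs, so whether the controls also had contact with MenSCs cannot be told from the labels. All groups share 1 cell line, the dose and time of treatment are not given, and separate cultures are not stated for the libraries within a group, so the spread between them may be technical. The organism is labelled Mus musculus, whereas RSC96 is known as a rat line and all 819 gene identifiers are rat Ensembl identifiers. The study looked for genes tied to Schwann cell proliferation.

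Ligands of the TGF-beta family are secreted dimers. They bind paired serine/threonine kinase receptors at the cell surface, which phosphorylate SMAD proteins that enter the nucleus and change transcription. Genes of matrix proteins and of matrix cross-linking enzymes are among the best known targets of this signalling in many cell types, and the matrix in turn stores latent TGF-beta. In peripheral nerve, Schwann cells make a basement membrane around themselves, and TGF-beta signalling takes part in their response to nerve injury.

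Each deposited table compares 1 pair of groups and lists only genes that the authors selected, with a p-value under 0.05 and at least a 2-fold difference: 185 genes in the table of E-SCs against SCs, 405 in that of M-SCs against SCs and 555 in that of E-SCs against M-SCs. Levels are given as scaled counts, the read count of a gene in a library multiplied by that library's scaling factor. Because the smallest values are whole multiples of 1 read, the reads behind each value were recovered. Relative depth ran from 0.868 to 1.16 over the 9 libraries, and the listed genes held 266674 to 609452 reads per library, while the library totals are unknown. Libraries of 1 group differed by more than counting error, with a chi-square per degree of freedom of 6.35 to 19.7. Whether a value reflects less RNA per cell or fewer cells of a kind cannot be told apart in bulk RNA.

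For 4 of the 7 genes, Inhba, Lox, Fndc1 and Vwa1, E-SCs and M-SCs lay on opposite sides of SCs. For Fndc1 and Vwa1 the M-SCs side was not clear when libraries were scaled to equal medians, as given below. Of the 316 genes with values in all 9 libraries, 11.1% had E-SCs lowest and M-SCs highest without overlap, and 7.91% the reverse. Both ligand genes were higher in E-SCs than in M-SCs, by 3.45-fold for Tgfb2 and 3.72-fold for Inhba as ratios of mean scaled counts. Lox, Vcan, Fndc1 and Vwa1 were lower in E-SCs relative to M-SCs. Timp3 had a few reads in E-SCs and none in M-SCs. All 7 genes were listed for E-SCs against M-SCs, where the authors listed 3.0% of the 18514 genes they tested. For M-SCs against SCs 4 were listed (Tgfb2 and Inhba lower, Lox and Vcan higher), where 2.19% of 18503 tested genes were. For E-SCs against SCs 3 were listed (Fndc1 and Vwa1 lower, Timp3 higher), where 1.0% of 18409 were. Since these values chose the genes, nothing is read from the counts. Of all listed genes, 41.4% were higher in E-SCs and 58.6% lower relative to M-SCs, 60.7% were higher in M-SCs and 39.3% lower relative to SCs, and 54.1% were higher in E-SCs and 45.9% lower relative to SCs. The 3 comparisons share their libraries, each group entering 2 of them, so a high or low group appears in both.

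**Figure D1:**
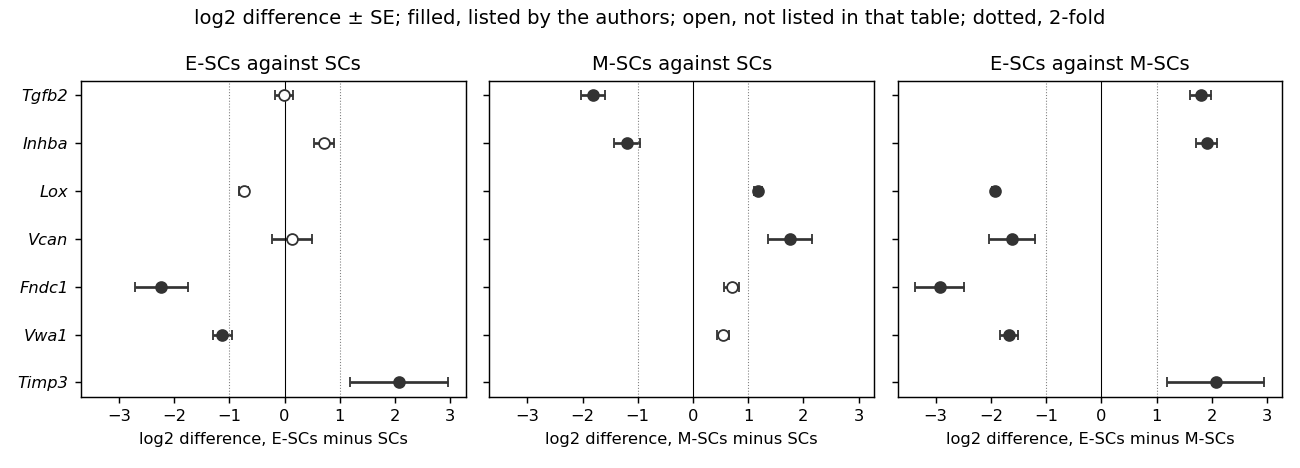
log2 difference of each of the 7 genes in the 3 comparisons (x axis, first group minus second on the log2(scaled count + 1) scale; bars, standard error, 3 libraries per group). Filled points are listed in the authors' table for that comparison, open points are not; Timp3 has no point for M-SCs against SCs, where both groups held 0 reads. In E-SCs minus M-SCs the points lie between -2.93 for Fndc1 and 2.07 for Timp3.

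Tgfb2 encodes TGF-beta 2, which is secreted as a latent complex. Its scaled counts were 239, 225 and 247 in E-SCs, 83.9, 52.5 and 69.7 in M-SCs, against 188, 266 and 272 in SCs. The M-SCs libraries were all below those of the other groups, while E-SCs and SCs overlapped. Means were 237 ± 11.1 in E-SCs, 68.7 ± 15.7 in M-SCs, against 242 ± 46.6 in SCs (SD, n = 3 each). The log2 difference of M-SCs minus SCs was -1.81 (SE 0.22), and that of E-SCs minus M-SCs was 1.80 (SE 0.19). For E-SCs minus SCs, a pair for which the authors did not list Tgfb2, it was -0.01 (SE 0.16). The low level in M-SCs rests on 218 reads, against 745 reads in SCs.

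Inhba encodes the beta A subunit, which forms activin A as a dimer with itself and inhibin A with the alpha subunit. It had scaled counts of 304, 303 and 337 in E-SCs, 96.9, 61.4 and 95.6 in M-SCs, against 146, 226 and 212 in SCs. No 2 of the groups overlapped, with E-SCs highest and M-SCs lowest. The mean was 315 ± 19.0 in E-SCs, 84.6 ± 20.1 in M-SCs, against 195 ± 43.1 in SCs (SD, n = 3 each). M-SCs minus SCs gave a log2 difference of -1.20 (SE 0.24), and E-SCs minus M-SCs gave 1.91 (SE 0.19). For E-SCs minus SCs, where Inhba was not listed, the log2 difference was 0.71 (SE 0.18), which lies under the authors' 2-fold limit. The ratio of mean scaled counts was 1.62-fold. M-SCs replicate 2 and SCs replicate 1 were the lowest of their groups for Inhba as for Tgfb2.

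A ratio of the reads of 2 genes in 1 library does not depend on how libraries are scaled. Inhba had 1.27, 1.35 and 1.36 reads per Tgfb2 read in E-SCs, 1.16, 1.17 and 1.37 in M-SCs, against 0.774, 0.853 and 0.780 in SCs. Both treated groups thus lay above the controls in every library and overlapped with each other. The ratio of Lox to Tgfb2 reads was 4.67, 4.28 and 4.10 in E-SCs, 45.1, 76.4 and 56.2 in M-SCs, against 8.28, 6.61 and 6.83 in SCs, with no overlap between any pair of groups. This ratio averaged 4.35 in E-SCs and 59.2 in M-SCs, against 7.24 in SCs.

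**Figure D2:**
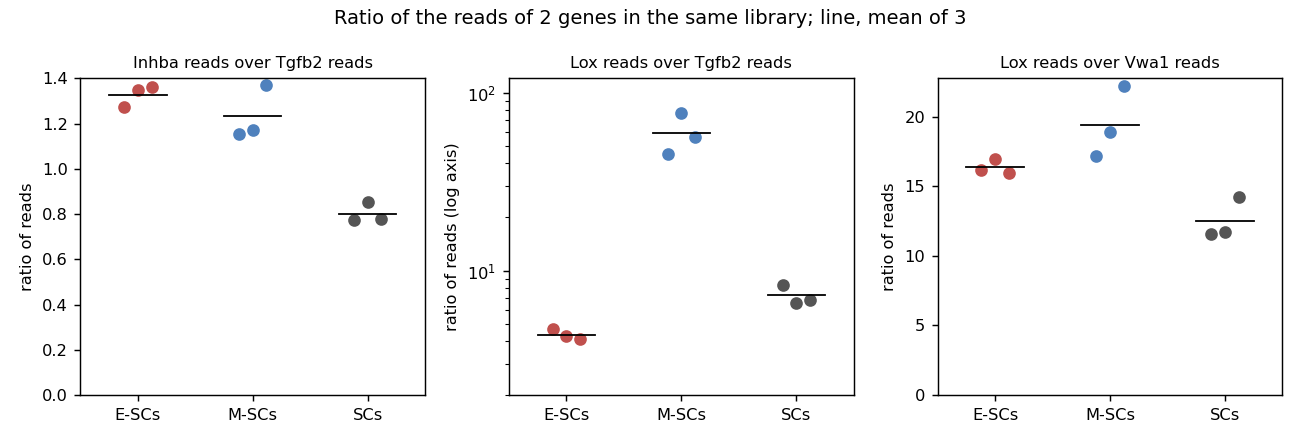
Ratio of the reads of 2 genes in the same library (y axis, no unit; log axis in the middle panel) in E-SCs, M-SCs and SCs. Points are single libraries and lines are the means of 3. The Inhba to Tgfb2 ratio is 1.16 or more in every treated library and at most 0.853 in SCs, and the Lox to Tgfb2 ratio is at least 45.1 in M-SCs and at most 8.28 elsewhere.

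Lox encodes lysyl oxidase, the secreted enzyme that cross-links collagen and elastin. With 878 to 4555 reads per library it was the most deeply covered of the 7 genes. Scaled counts were 1115, 961 and 1012 in E-SCs, 3783, 4007 and 3922 in M-SCs, against 1558, 1755 and 1856 in SCs. Every E-SCs library was below every SCs library, and every SCs library below every M-SCs library. The means were 1029 ± 78.3 in E-SCs, 3904 ± 113 in M-SCs, against 1723 ± 152 in SCs (SD, n = 3 each). Lox differed by -1.92 (SE 0.06) on the log2 scale in E-SCs minus M-SCs and by 1.18 (SE 0.07) in M-SCs minus SCs. In E-SCs minus SCs, where the authors did not list it, the log2 difference was -0.74 (SE 0.09), a level 1.67-fold lower. Of the members' listed differences, those closest to the 2-fold limit were Vwa1 in E-SCs minus SCs (-1.12) and Lox in M-SCs minus SCs (1.18). Just outside it stood Lox (-0.74) and Inhba (0.71) in E-SCs minus SCs, and Fndc1 (0.70) in M-SCs minus SCs.

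Vcan encodes versican, a large chondroitin sulphate proteoglycan that binds hyaluronan. Its scaled counts were low, at 14, 9.28 and 17.3 in E-SCs, 26.1, 51.3 and 56.8 in M-SCs, against 9.76, 13.3 and 12.8 in SCs. Each M-SCs library was above all libraries of the other groups, and E-SCs and SCs overlapped. On the log2 scale, M-SCs minus SCs was 1.75 (SE 0.39), E-SCs minus M-SCs was -1.62 (SE 0.42) and E-SCs minus SCs, not listed, was 0.13 (SE 0.37). E-SCs held 38 Vcan reads, M-SCs 140 and SCs 37. M-SCs replicate 1, at 26.1, was the lowest of its group and lay closer to the highest E-SCs library than to the other M-SCs libraries.

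Fndc1 encodes a secreted protein with fibronectin type III domains. It had 9, 37.1 and 21.9 scaled counts in E-SCs, 143, 172 and 154 in M-SCs, against 108, 83.7 and 96.3 in SCs. The order was the same as for Lox, with no overlap. Means were 22.7 ± 14.1 in E-SCs, 156 ± 14.7 in M-SCs, against 96.1 ± 12.3 in SCs (SD, n = 3 each). E-SCs minus M-SCs was -2.93 (SE 0.44) on the log2 scale, and E-SCs minus SCs was -2.23 (SE 0.47). On this scale they were the largest differences of the 7 genes, at rank 43 of 555 and rank 50 of 185 by absolute size among the listed genes. M-SCs minus SCs, not listed, was 0.70 (SE 0.13). The E-SCs libraries had a coefficient of variation of 62.1%, on 64 reads in all. Without E-SCs replicate 1 the difference from M-SCs was -2.41, and without E-SCs replicate 2 it was -3.37.

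Vwa1 encodes a small matrix protein with a von Willebrand factor A domain, which in mouse is found in basement membranes, those of peripheral nerve included. Its scaled counts were 69.0, 56.7 and 63.4 in E-SCs, 220.0, 212 and 176 in M-SCs, against 135, 149 and 131 in SCs. Again E-SCs were lowest and M-SCs highest, with no overlap. Vwa1 averaged 63.0 ± 6.14 in E-SCs, 203 ± 23.2 in M-SCs, against 138 ± 9.85 in SCs (SD, n = 3 each). The log2 differences were -1.12 (SE 0.17) in E-SCs minus SCs, -1.67 (SE 0.16) in E-SCs minus M-SCs and, not listed, 0.54 (SE 0.11) in M-SCs minus SCs. Lox had 16.2, 16.9 and 16 reads per Vwa1 read in E-SCs, 17.2, 18.9 and 22.2 in M-SCs, against 11.5, 11.7 and 14.2 in SCs. Both treated groups were above the controls in this ratio, as for Inhba to Tgfb2 but not for Lox to Tgfb2. Yet Lox and Vwa1 were each below the controls in E-SCs and above them in M-SCs. The ratio of Fndc1 to Vwa1 averaged 0.377 in E-SCs, 0.777 in M-SCs, against 0.700 in SCs. Its libraries were at 0.130, 0.655 and 0.345 in E-SCs, 0.648, 0.811 and 0.873 in M-SCs, against 0.803, 0.561 and 0.738 in SCs. All groups thus overlapped in this ratio, and the lowest E-SCs library rests on 9 Fndc1 reads. That of Vcan to Lox averaged 0.0131 in E-SCs, 0.0114 in M-SCs, against 0.00693 in SCs, and M-SCs overlapped with both E-SCs and SCs.

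Timp3 encodes an inhibitor of metalloproteinases that is held in the matrix. It had 5, 11 and 0 reads in E-SCs and 0 reads in every M-SCs and SCs library. Thus 1 of the 3 E-SCs libraries was at 0 like those of the other groups. The 16 reads in E-SCs have an exact 95% Poisson interval of 9.15 to 26.0, which covers counting error only. Set against a floor of 3 reads over the group, the E-SCs level was 5.88-fold that floor in M-SCs and 5.85-fold that in SCs. These folds take the 16 reads as exact, so they are not lower bounds. With 1 added to each scaled count, the log2 difference was 2.07 in both comparisons (SE 0.87 against M-SCs and 0.89 against SCs), a value that depends on the added count. In the authors' deposited table the false discovery rate of Timp3 was 0.0401 for E-SCs against M-SCs and 0.0629 for E-SCs against SCs. Without E-SCs replicate 2 the log2 difference was 1.29, and without E-SCs replicate 3 it was 3.11. In the mouse annotation Timp3 lies within Syn3 on the other strand, and none of the sources used here says whether reads were counted by strand, so reads of the 2 genes may not have been told apart.

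**Figure D3:**
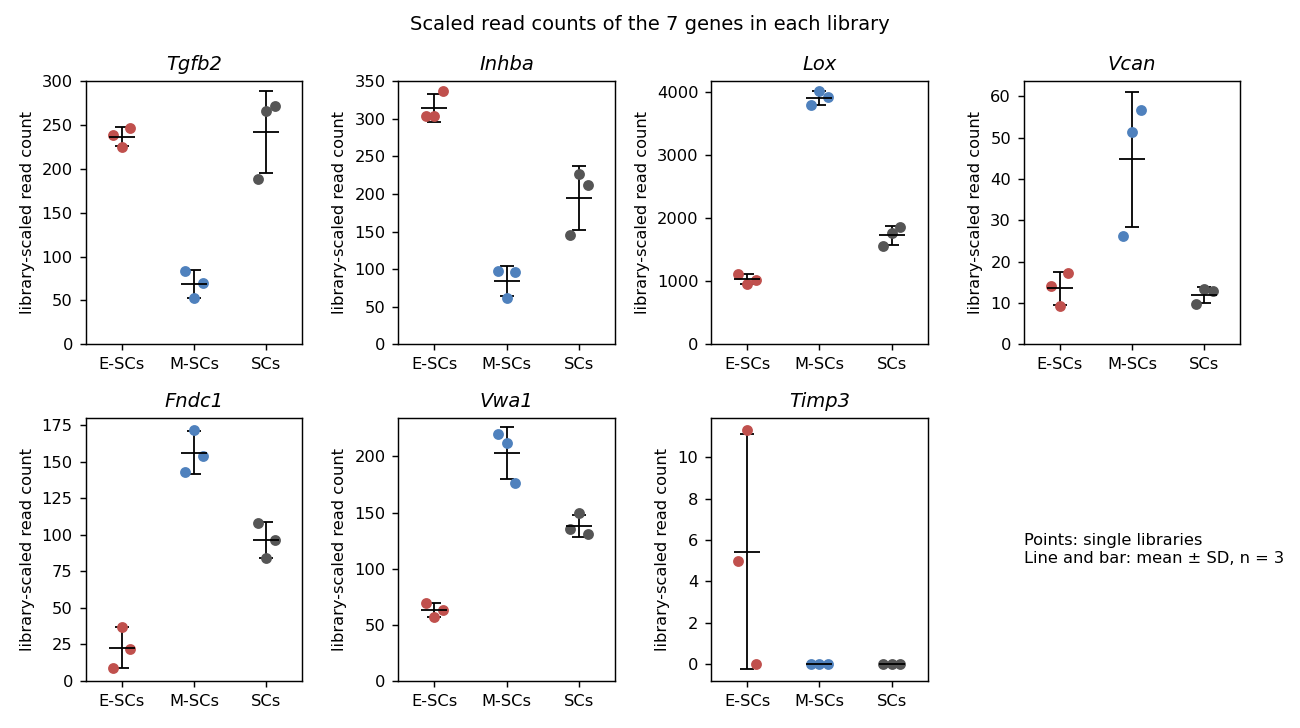
Scaled read counts of the 7 genes (y axis, linear, a scale for each panel) in E-SCs, M-SCs and SCs. Points are single libraries, and the horizontal line and bar give the mean and SD of 3 libraries. M-SCs are highest for Lox, Vcan, Fndc1 and Vwa1 and lowest for Tgfb2 and Inhba, and only E-SCs hold Timp3 reads.

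For 3 of the 7 genes, Lox, Fndc1 and Vwa1, E-SCs lay below SCs and SCs below M-SCs with no overlap of libraries, an order shared by 11.1% of the 316 genes that have values in all 9 libraries. Inhba alone of the 7 had the opposite order, M-SCs below SCs below E-SCs, which 7.91% of the 316 genes had. Among listed differences, libraries of the groups did not overlap for 6 of 7 genes in E-SCs against M-SCs (background 89.9% of 555 listed genes), 4 of 4 in M-SCs against SCs (83.0% of 405) and 2 of 3 in E-SCs against SCs (71.9% of 185), Timp3 being the exception in both comparisons that include E-SCs. Among pairs for which the authors did not list a member, Inhba and Lox did not overlap in E-SCs against SCs, 2 of 4 where 21.7% of 212 such genes did not. In M-SCs against SCs neither did Fndc1 and Vwa1, 2 of 2 with reads, where 12.3% of 65 did not. Timp3, also not listed there, had 0 reads in both groups and counts among the 65 as overlapping. The 212 and the 65 genes include the members. The median absolute log2 difference of the listed members was 1.91 in E-SCs against M-SCs, 1.48 in M-SCs against SCs and 2.07 in E-SCs against SCs, beside 1.51, 1.52 and 1.83 over all listed genes of those tables. The 2.07 is the value of Timp3, the middle of 3 genes, which depends on the count added before the log. Members were chosen with these values known, so nothing is read from the medians. The median over the genes of a table, which were selected for differing, was itself higher in M-SCs than in E-SCs or SCs, and higher in E-SCs than in SCs. Scaling the libraries to equal medians moved the differences by 0.46 in E-SCs minus M-SCs, -0.50 in M-SCs minus SCs and -0.23 in E-SCs minus SCs, and by -0.44 and -0.07 in the last 2 for members not listed there. Each difference of the 7 genes kept its sign under that scaling, but in M-SCs minus SCs Vwa1 came to 0.10 (SE 0.12), Fndc1 to 0.26 (SE 0.16) and Lox to 0.68 (SE 0.09). For Vwa1 and Fndc1 the side of SCs on which M-SCs lay was thus not clear under that scaling. Tgfb2 came to -2.31 and Inhba to -1.70.

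FPKM, the authors' values scaled for transcript length and library depth, allow levels to be compared between genes. In E-SCs the order of mean FPKM was Lox at 6.61, Inhba at 3.8, Tgfb2 at 1.69, Vwa1 at 0.678, Fndc1 at 0.108, Timp3 at 0.0934 and Vcan at 0.0328. Timp3 overlapped with both of its neighbours, and no other neighbours in that order did. In M-SCs the order was Lox at 24.9, Vwa1 at 2.18, Inhba at 1.01, Fndc1 at 0.757, Tgfb2 at 0.484 and Vcan at 0.115, with Timp3 listed at 0. Among these, Inhba and Fndc1 overlapped. Vwa1 thus stood below both ligand genes in E-SCs and above both in M-SCs. In SCs, for which FPKM of Vwa1, Fndc1 and Timp3 were not used here, Lox had 11.0, Inhba 2.33, Tgfb2 1.71 and Vcan 0.0291, and Inhba and Tgfb2 overlapped.

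**Figure D4:**
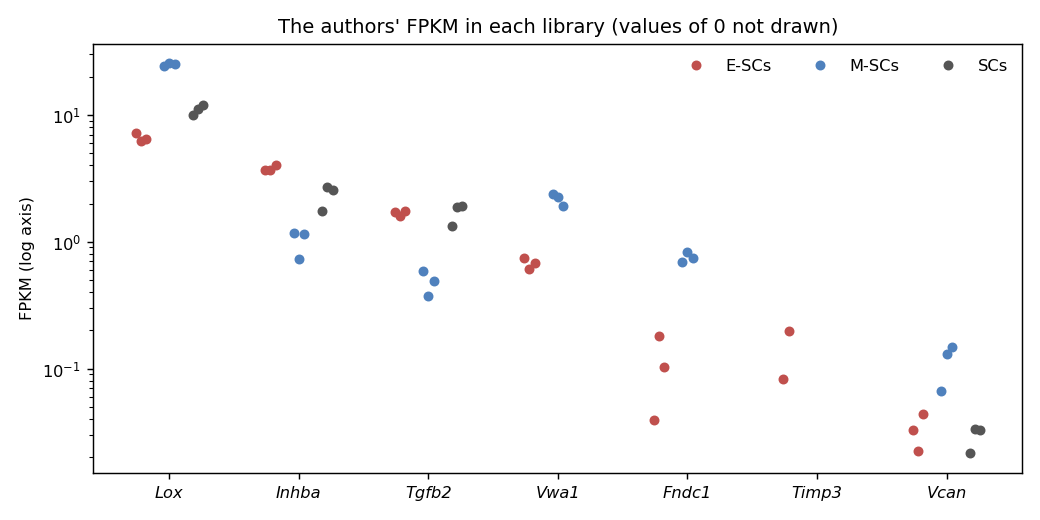
The authors' FPKM of the 7 genes in each library (y axis, log scale), ordered by their mean in E-SCs; within a gene, E-SCs are on the left, M-SCs in the middle and SCs on the right. FPKM of 0 (Timp3 in 1 E-SCs library and in M-SCs) cannot be drawn on a log axis, and SCs values of Vwa1, Fndc1 and Timp3 were not used. Lox is highest in each group, with means of 6.61, 24.9 and 11.0 FPKM.

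The genes whose profile was closest to each member were found by the root mean square difference of log2 values, each gene centred on its own mean, over the 9 libraries and among 315 other genes. Closest to Tgfb2 were AABR07054460.4 (0.18), Prickle1 (0.24), a planar cell polarity gene, and AABR07060862.1 (0.27). For Inhba they were Sema3d (0.22), a secreted semaphorin, AABR07060862.1 again (0.27) and Lpar1 (0.28), a receptor of lysophosphatidic acid. Prickle1, for example, had means of 2923 ± 154 scaled counts in E-SCs, 805 ± 33.9 in M-SCs, against 2365 ± 92.4 in SCs (SD, n = 3 each). Lox was most like Slc16a3 (0.13), a lactate transporter gene, Serpinf1 (0.14), which encodes a secreted serpin, and Cp (0.17), which encodes the copper carrier ceruloplasmin. Slc16a3 averaged 765 ± 53.1 scaled counts in E-SCs, 3259 ± 76.5 in M-SCs, against 1333 ± 44.2 in SCs (SD, n = 3 each), close to the proportions of Lox. Vwa1 was most like LOC100910163 (0.15), Dusp1 (0.16), a phosphatase gene, and LOC684871 (0.18). Profiles near Vcan (Fam43a at 0.34, Rnase4 and Mgat3 at 0.37) and near Fndc1 (N4bp2l1 at 0.41, AABR07066529.3 at 0.43, Egln3 at 0.63) were less close. Those near Timp3 (AABR07000452.1 at 0.61, Rn60_6_1133.1 at 0.77 and LOC103694556 at 0.85) held 14 to 16 reads in E-SCs and at most 1 read in each other group. Within the 7 genes, the closest pairs were Lox with Vwa1 (0.29) and Tgfb2 with Inhba (0.33).

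In the authors' annotation all 7 genes carry the GO term extracellular region, as do 166 of the 819 genes. The term extracellular matrix is given to Tgfb2, Lox, Vcan, Vwa1 and Timp3, 5 of the 30 genes that carry it, and basement membrane to Tgfb2, Vwa1 and Timp3, 3 of 8. Of the genes with the term extracellular matrix, 9 were higher and 16 lower in E-SCs against M-SCs, where 64.0% lower compares with 58.6% of all listed genes. In M-SCs against SCs 11 were higher and 5 lower (31.2% lower, against 39.3% of all listed genes). Members make up 5 of those 25 genes and 3 of those 16. They were chosen with their values known, so nothing is read from these shares. Tgfb2 and Inhba are 2 of the 7 genes placed in the KEGG TGF-beta signalling pathway. For genes other than Tgfb2, Inhba and the 5 matrix genes, limma's p-values are adjusted over all listed genes of a table. Because the authors chose those genes for differing between the same libraries, an adjusted p is no independent evidence of a difference, and it is given only to set each difference against the spread of the libraries. Id4, which encodes an inhibitor of DNA binding and is among the other 5, is in none of the lists used below and was named after its values were seen. It had 646, 680 and 560 scaled counts in E-SCs, against 142, 191 and 183 in M-SCs (log2 difference 1.87, SE 0.14, limma adjusted p = 2.77e-06). SCs had 486, 534 and 628, so that M-SCs minus SCs was -1.68 (SE 0.15, limma adjusted p = 1.44e-05), and the M-SCs lay below the other libraries in both comparisons.

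The other genes of TGF-beta signalling come from lists of 106 family ligands, receptors, extracellular regulators, SMADs and target genes, of which 9 besides Tgfb2 and Inhba were in any table. No receptor was, so the receptors are not analysed here. In E-SCs against M-SCs 7 of the 9 were listed and all passed limma at an adjusted p under 0.05 over the 555 listed genes, 4 higher and 3 lower, where 92.1% of all listed genes passed, 36.6% higher and 55.5% lower. Among ligands, Gdf15, a stress-induced member of the family, was higher in E-SCs, with 739, 714 and 558 scaled counts in E-SCs, against 317, 310 and 363 in M-SCs (log2 difference 1.01, SE 0.12, limma adjusted p = 9.26e-05). Inhbc, which encodes another inhibin beta subunit, rested on 11 reads in E-SCs, against 0 in M-SCs, 4.05-fold the floor of 3 reads. Of target genes, Ctgf, which encodes connective tissue growth factor, had 13699, 13622 and 13200 scaled counts in E-SCs, against 6465, 6612 and 6974 in M-SCs, so that the log2 difference was 1.02 with SE 0.03 (limma adjusted p = 1.99e-08). Snai2, a transcriptional repressor of epithelial genes, was also higher, by 1.36 (SE 0.12, limma adjusted p = 1.32e-05). Its means were 673 scaled counts in E-SCs, 262 in M-SCs, against 630 in SCs, and E-SCs overlapped with SCs. Gdf15, Inhbc and Ctgf have no values in SCs here.

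Smad7, Pmepa1 and Id2 were lower in E-SCs in that comparison. Smad7, the inhibitory SMAD, had 191 mean scaled counts in E-SCs, against 399 in M-SCs (log2 difference -1.05, SE 0.11, limma adjusted p = 4.44e-05), and no values in SCs here. Pmepa1, which encodes a membrane protein that binds SMADs, had no reads in E-SCs, against 10, 0 and 8 in M-SCs. The M-SCs level was 5.44-fold the floor of 3 reads in E-SCs. M-SCs replicate 2 was at 0 like the E-SCs libraries, so the groups overlapped, and limma's call was lost when any library but M-SCs replicate 2 was left out. Id2, a regulator of differentiation that BMP signalling raises, had 7, 13 and 9 reads in E-SCs, against 21, 28 and 24 in M-SCs (log2 difference -1.15, SE 0.42, limma adjusted p = 0.0290), and that call was lost without E-SCs replicate 1 or 3 or M-SCs replicate 2 (range 0.0314 to 0.0851).

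In M-SCs against SCs 3 of the 9 genes were listed, where limma called 83.2% of the listed genes, 50.4% higher and 32.8% lower. Tll1, a metalloproteinase that cleaves the BMP antagonist chordin, rose to 199 mean scaled counts in M-SCs, against 89.7 in SCs (log2 difference 1.14, SE 0.13, limma adjusted p = 9.59e-05). Snai2 fell, by 1.27 on the log2 scale (SE 0.13, limma adjusted p = 3.55e-05). Bmp2 had 7, 17 and 14 reads in M-SCs and 3, 0 and 7 in SCs, so the groups overlapped. Its limma adjusted p of 0.0484 was above 0.05 without any library but SCs replicate 3 (range 0.0232 to 0.161). In E-SCs against SCs 2 were listed, both lower, where limma called 65.4% of the listed genes, 31.9% higher and 33.5% lower. Pmepa1 had 0 reads in E-SCs and 6, 3 and 3 in SCs, where the level was 3.65-fold the floor of 3 reads in E-SCs. Id2 had a log2 difference of -1.36 with SE 0.43 (limma adjusted p = 0.0317), and that call was lost without replicate 1 or 3 of either group (range 0.0255 to 0.0957).

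Of the matrix lists, which take collagens, laminins, metalloproteinases and integrins by the form of their symbols and other genes by name, 19 genes besides Lox, Vcan, Fndc1, Vwa1 and Timp3 were in any table. In E-SCs against M-SCs 12 of the 19 were listed, and limma called 4 higher and 7 lower, beside the 92.1% of all 555 listed genes that it called, 36.6% higher and 55.5% lower. Emilin1, which encodes an elastic fibre glycoprotein, was lower in E-SCs, with 730, 833 and 806 scaled counts in E-SCs, against 1693, 1738 and 1673 in M-SCs (log2 difference -1.11, SE 0.06, limma adjusted p = 5.68e-07). It has no values in SCs here. Comp, which encodes a cartilage and tendon matrix protein, had 0, 4 and 0 reads in E-SCs, against 6, 14 and 13 in M-SCs (log2 difference -2.68, SE 0.76, limma adjusted p = 0.0110). With E-SCs libraries at 0, the size of that difference depends on the count added before the log. The calls for Col7a1, the anchoring fibril collagen, for the hyaluronan link protein gene Hapln4, for the integrins Itga2 and Itgb8 and for Tgm2, a cross-linking transglutaminase, all lower in E-SCs, were each lost when some single library was left out, with the highest adjusted p between 0.0506 (Hapln4, without E-SCs replicate 1 or M-SCs replicate 1) and 0.153 (Tgm2, without any library but E-SCs replicate 2). Col7a1 lost its call without E-SCs replicate 2 or 3 or M-SCs replicate 1 or 2, Itga2 without E-SCs replicate 3 or M-SCs replicate 1 or 2, and Itgb8 without M-SCs replicate 2.

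Matrix genes higher in E-SCs than in M-SCs were Col20a1, Ogn, Ctgf and Col10a1. Col20a1, a fibril-associated collagen, had 782, 732 and 870 scaled counts in E-SCs, against 241, 353 and 298 in M-SCs (log2 difference 1.43, SE 0.14, limma adjusted p = 2.13e-05). The proteoglycan gene Ogn averaged 254 scaled counts in E-SCs, against 124 in M-SCs (log2 difference 1.03, SE 0.14, limma adjusted p = 1.67e-04). In SCs Ogn averaged 260 scaled counts. Col10a1 rested on 5, 3 and 3 reads in E-SCs and none in M-SCs or SCs, 4.05-fold and 4.02-fold the floor of 3 reads in those groups. As for Inhbc and Pmepa1, a group at 0 in every library has no spread of its own, so no p is given for these genes, although limma's counts of calls include them. Ncan, a nervous system proteoglycan, was listed with 9, 0 and 3 reads in E-SCs but none in M-SCs, 4.41-fold the floor of 3 reads. Limma called Ncan only without E-SCs replicate 2, with libraries scaled to equal medians or with the replicate number as a block.

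**Figure D5:**
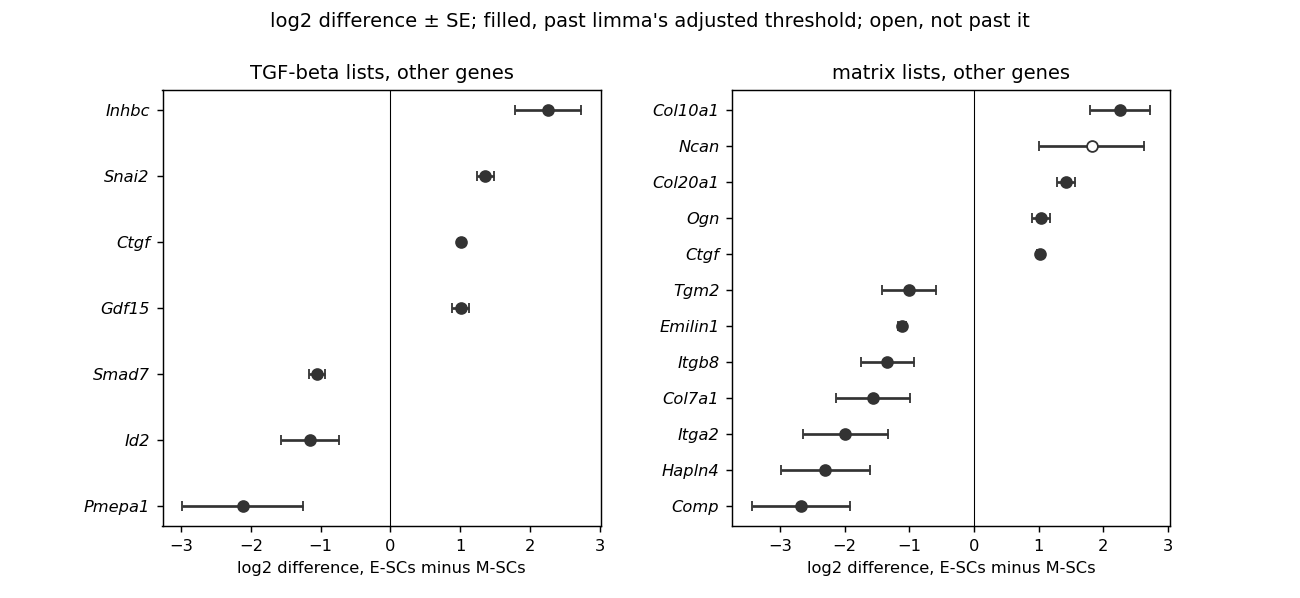
log2 difference of the other listed genes of the TGF-beta lists (left) and of the matrix lists (right), as E-SCs minus M-SCs in log2(scaled count + 1) (bars, standard error, 3 libraries per group). Filled points passed limma at an adjusted p under 0.05 over the 555 listed genes and the open point (Ncan) did not; Ctgf is in both lists. In the TGF-beta lists 4 genes lie above 0 and 3 below, and in the matrix lists 5 above and 7 below.

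In M-SCs against SCs 8 of the 19 matrix genes were listed, and limma called 3 higher and 4 lower, beside 83.2% of all 405 listed genes, 50.4% higher and 32.8% lower. Ogn fell by 1.06 on the log2 scale (SE 0.16, limma adjusted p = 4.87e-04) and Omd, another small leucine-rich proteoglycan gene, by 1.88 (SE 0.40, limma adjusted p = 0.00318). Srgn, which encodes serglycin, rose by 1.05 (SE 0.16, limma adjusted p = 4.34e-04). Of the integrins, which are matrix receptors, Itga1 and Itga2 rose, by 1.13 and 2.69, and Itga8 and Itga11 fell, by 1.43 and 1.31, with limma adjusted p from 0.00686 to 0.0258. Only the call of Itga1 among these 4 held without each library: Itga2 lost it without M-SCs replicate 1 or 2 or SCs replicate 3, Itga8 without SCs replicate 3, and Itga11 without M-SCs replicate 1 or 3 or SCs replicate 2 or 3. Mmp23 had 0, 6 and 14 reads in M-SCs and 1, 0 and 0 in SCs and did not pass (limma adjusted p = 0.0782), except without M-SCs replicate 1 (range 0.00463 to 0.247). In E-SCs against SCs 2 were listed, Col10a1, with none in SCs as given above, and A2m, the gene of a broad proteinase inhibitor, which had 3, 6 and 20 reads in E-SCs and 46, 46 and 10 in SCs and did not pass (limma adjusted p = 0.0861, range 0.0540 to 0.251). No laminin, nidogen or other gene of the basement membrane list was in any table. All 40 differences of these and the marker genes below kept their sign with libraries scaled to equal medians, and 31 of 37 calls were kept. Those of Bmp2 in M-SCs against SCs, and of Id2, Pmepa1, Col7a1, Itgb8 and Tgm2 in E-SCs against M-SCs, were lost, while A2m in E-SCs against SCs and Ncan in E-SCs against M-SCs were called under that scaling.

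The tables list only selected genes, so cell type markers could be looked up in part. Among the Schwann cell markers, Prx and Pmp22, genes of myelin proteins, had reads in every library of the groups for which they have values. Prx was lowest in M-SCs, as the ligand genes were, with 945, 873 and 1034 scaled counts in E-SCs, 423, 359 and 442 in M-SCs, against 1055, 1052 and 893 in SCs. It was higher in E-SCs than in M-SCs (log2 difference 1.22, SE 0.10, limma adjusted p = 6.93e-06) and lower in M-SCs than in SCs (log2 difference -1.29, SE 0.11, limma adjusted p = 9.05e-06). Pmp22 was lower in E-SCs, with 859 scaled counts, against 1746 in M-SCs (log2 difference -1.02, limma adjusted p = 1.21e-06), and has no values in SCs here. Of 7 macrophage and leukocyte markers only Cd14 was listed, at 160.2 scaled counts in E-SCs, 570 in M-SCs, against 201 in SCs, and of 8 fibroblast and 5 endothelial markers none was. The part of these markers in the differences of the 7 genes was not tested, and the other markers are not analysed here.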

How the data were processed

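Per the labels' protocols, mRNA of RSC96 cells was enriched with oligo(dT) beads, made into cDNA with random hexamers and sequenced. HISAT2 and StringTie are named per the submitters' processing notes, as is mm10, a mouse build, without role or version. The authors deposited 3 tables of selected genes, each holding per-library log2 values, their own log2 fold changes, p-values and FDR and, in 2 tables, FPKM. From the values, the deposited log2 values are log2(scaled count + 1), identical wherever 2 tables hold the same gene and library. Undoing the log gave whole multiples of 1 read within 0.01 for values of up to 1000 reads. The numbers of genes tested were inferred from the ratio of FDR to p, which gave a whole rank for 82.16, 89.75 and 91.41% of genes (in the tables of 185, 405 and 555 genes).

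Differences and standard errors came from limma 3.58.1 (R 4.3.3) with a mean-variance trend, fitted on all listed genes of a table without covariates, with Benjamini-Hochberg adjustment and a threshold of 0.05. For pairs in which a member was not listed, genes with values in both groups were joined over the tables and fitted together. The fit was also run on simulated data with the same added spread for every gene, of which only part differed. The tables here hold only selected genes, so that run does not show how the fit performs on them. The sign of E-SCs against M-SCs was turned to E-SCs minus M-SCs. The 7 genes, the pathway lists and the markers were chosen with earlier results of these data known. By rule the text names all 7 genes, the listed genes of each list and the 3 genes closest to each member. Intervals cover counting error only. Folds over the floor take the reads of the other group as exact and give no lower bound. Same-numbered libraries did not deviate together (correlations of -0.067 to 0.023), so the numbers were not taken as pairs. Alternatives were another pseudocount, equal medians, a filter on low values, no trend, FPKM, a replicate block and leaving out each library. Sequences and some annotation columns were not used here. 1 marker gene is not reported here.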

Additional observations from a re-analysis of the deposited data

How the results depend on the processing

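Of 175 alternative values for the 20 differences of the 7 genes, 152 moved by less than 1 SD (pooled over the 2 groups). Of these, 120 had a library left out. Leaving out 1 of 3 libraries cannot move a difference by 1 such SD, so those 120 say nothing about robustness. Of the others, 9 of 20 stayed within 1 SD with equal medians, 5 of 15 at log2(FPKM + 1) and 18 of 20 with a pseudocount of 0.1. The sign changed only for E-SCs minus SCs of Tgfb2 and Vcan, which lie near 0, with -0.18 to 0.08 and -0.05 to 0.36 over these settings. With libraries scaled to equal medians, Tgfb2 came to -2.31 in M-SCs minus SCs and 2.26 in E-SCs minus M-SCs, Inhba to -1.70 and 2.37, and Lox to 0.68 and -1.46. Vcan came to 1.25 and Fndc1 to 0.26 in M-SCs minus SCs. Vwa1 came to -1.35 in E-SCs minus SCs, 0.10 in M-SCs minus SCs and -1.20 in E-SCs minus M-SCs. At log2(FPKM + 1), which compresses low values, Tgfb2 came to -0.87 in M-SCs minus SCs and 0.86 in E-SCs minus M-SCs, Inhba to -0.72 and 1.26, and Vcan to 0.11 and -0.11. In E-SCs minus M-SCs, Lox came to -1.77, Fndc1 to -0.67, Vwa1 to -0.92 and Timp3 to 0.12. With a pseudocount of 0.1, Timp3 came to 4.17 in both comparisons.

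Of the listed genes, limma called 121 (E-SCs against SCs), then 337 (M-SCs against SCs) and lastly 511 (E-SCs against M-SCs), and counts below keep that order. A filter at a mean log2 value of 5 tested fewer genes and called 34 of 36, 165 of 165 and 270 of 270. Leaving out 1 library gave 78 to 105, 275 to 293 and 429 to 440, the first count being 79 without E-SCs replicate 2 and 80, 78 and 80 without SCs replicates 1, 2 and 3. With equal medians the called genes split into 44 higher and 73 lower, 135 and 154, and 225 and 235, against 59 and 62, 204 and 133, and 203 and 308. The replicate block called 122, 338 and 493, and in this balanced design it cannot change a difference of means. Joining genes over the tables, chosen after seeing the data, called 101 of 397, 302 of 470 and 483 of 584. Of 37 calls on genes of the pathway and marker lists, 25 held without each library and 12 did not. The calls of Bmp2 in M-SCs against SCs and of Pmepa1 and Tgm2 in E-SCs against M-SCs were also lost with a pseudocount of 0.1 and without the trend, and both calls of Id2 with the replicate block, under which Ncan passed. Depth limits Timp3 (16 reads), Vcan (37 to 140 reads per group) and Fndc1 in E-SCs (64 reads).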
